A study of Homo sapiens with 8 samples.

Results

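The genes described here are those of the nuclear pore complex and of the soluble carriers that take proteins and RNA through it. They were chosen by name from a list of 48 symbols, and 45 were measured: 25 nucleoporins and 20 transport factors, among 18417 genes in all. The other three, NUP62, POM121 and RCC1, had only probe sets that the platform annotation pairs with several genes, and no level is given for them. Where a gene had more than 1 probe set, the brighter one by its mean over all 8 arrays was taken, a choice by measured values that touched only KPNA2 and RAN.

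The pore is a channel through the nuclear envelope built from many copies of its proteins, the nucleoporins. A symmetric scaffold, made of the Y-shaped coat and the inner ring, is anchored in the membrane and carries filaments on the cytoplasmic side, a basket on the nuclear side and disordered phenylalanine-glycine (FG) repeats in the channel. Importins bind cargo with a nuclear localisation signal in the cytoplasm and release it in the nucleus, where the GTP-bound form of the small GTPase RAN displaces it, while exportins bind cargo together with RAN-GTP and release it outside. The envelope breaks down and the pores come apart in mitosis, and cycling cells make new pores before they divide.

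The study used HCC1937, a breast cancer line that carries a mutated BRCA1, and the same line with wild-type BRCA1 expressed in it, to ask how COH29, an inhibitor of ribonucleotide reductase, acts on cells that lack or hold this DNA repair protein. The 4 groups were HCC1937 labelled control, HCC1937 with COH29, HCC1937+BRCA1 labelled control and HCC1937+BRCA1 with COH29, at 10 µM for 24 h, with 2 arrays in each group. All 8 arrays share the HCC1937 background and a serum-containing RPMI medium. The sources used here do not give how BRCA1 was introduced, whether HCC1937+BRCA1 is 1 clone or what the control cells received. Nor do they say whether replicates were separate cultures, so the p-values speak only of the spread among these arrays, which may be technical.

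Values are log2 intensities, on which a difference of 1 is a doubling, and pairs of values are replicates 1 and 2. The correlation of the 2 arrays of a group over all genes lay between 0.996 and 0.9974, and having 2 arrays a group limits how precise a value is. The BRCA1 probe set read 10.45 and 10.64 in the HCC1937 control arrays and 10.50 and 10.43 in those labelled HCC1937+BRCA1, a difference of -0.08 ± 0.10 (SE, adjusted p = 0.62), so its level did not set the control arrays apart, and HCC1937+BRCA1 below means the arrays so labelled. In each of the 4 groups 5 or 6 of 6 epithelial and 5 of 5 basal mammary markers were above the median of all genes. So were 1 or 2 of 5 leukocyte markers (CD68, and in HCC1937 also CD14) and at most 1 of 5 fibroblast markers. Of 5 endothelial markers PECAM1 and CDH5 were above it in HCC1937 control arrays, PECAM1 alone in HCC1937+BRCA1 control arrays and 0 in COH29 arrays. Signals of different probe sets are not strictly comparable, so this is a coarse check of the label.

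COH29 lowered a large share of these genes in both lines. In HCC1937, 20 of 45 were lower and 1 higher at an adjusted p under 0.05 (limma, Benjamini-Hochberg over all genes), where 22.7% of all genes were called, 12.5% lower and 10.2% higher. In HCC1937+BRCA1, 30 were lower and 2 higher, where 33.6% of all genes were called, 20.1% lower and 13.6% higher. The median difference of the 45 was -0.26 in HCC1937 and -0.43 in HCC1937+BRCA1, and that of all genes 0.04 in both. The list was drawn up with results of these data known, so these counts describe it and test nothing. A lower array value can stand for fewer cells that make the RNA or for less RNA per cell, and these cannot be told apart in bulk samples.

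All 45 lie in the upper part of the range of signals, where more genes are called. Among the 7722 genes whose mean was at or above that of NUP50, the lowest of the 45 at 8.45, 34.5% were called in HCC1937 (19.1% lower, 15.4% higher) and 49.2% in HCC1937+BRCA1 (32% lower, 17.2% higher), with medians of -0.04 and -0.11. This comparison was added after the values had been seen. After the arrays were shifted to a common median, the median of all genes in HCC1937+BRCA1 was 0.11 and the share of calls that were higher went from 40.3% to 54.4%, and 17 nucleoporins and 10 transport factors were still lower there.

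The 20 genes that fell in HCC1937 were also called lower in HCC1937+BRCA1, and the 1 that rose, TNPO1, rose in both. A further 11 were called in HCC1937+BRCA1 alone and 13 in neither, and none was called in HCC1937 alone or in opposite directions. The 20 are 44.4% of the 45, where 10.8% of all genes were lower in both lines, and the 11 are 24.4%, where 15.5% of all genes were called in HCC1937+BRCA1 alone and 4.57% in HCC1937 alone. Over all genes 61.8% were called in neither line and 0.119% in opposite directions. The sign of the difference was the same in both lines for 42 of the 45 (93.3%) and for 79% of all genes. The 2 comparisons share no arrays, although they share 1 estimate of the spread.

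Nucleoporins and transport factors are given side by side, with no test of a difference between the classes. Of 25 nucleoporins, 11 were lower and 0 higher in HCC1937, and 19 lower and 0 higher in HCC1937+BRCA1, with medians of -0.31 and -0.47. Of 20 transport factors, 9 were lower and 1 higher in HCC1937, and 11 lower and 2 higher in HCC1937+BRCA1, with medians of -0.19 and -0.32. The genes called higher were TNPO1 in both lines and KPNA4 in HCC1937+BRCA1, and with cyclic loess the nucleoporin TPR was called higher there as well. The transport factors were spread more widely, from -1.06 (IPO8) to 0.44 (TNPO1) in HCC1937, where nucleoporins ran from -0.63 (SEH1L) to 0.13 (NUP43). Averaged over the 25 nucleoporins, HCC1937 arrays read 10.51 and 10.48 without and 10.19 and 10.24 with COH29, and HCC1937+BRCA1 arrays 10.52 and 10.45 without and 10.06 and 10.04 with it. The corresponding means of the 20 transport factors were 11.15 and 11.16, 10.93 and 10.96, 11.093 and 11.002, and 10.73 and 10.67. By these means the treated arrays lay below the control arrays without overlap in each class and line. The medians of the 20 transport factors did overlap in both lines. They were 11.195 and 11.159 without and 11.051 and 11.16 with COH29 in HCC1937, and 11.044 and 10.934 without and 10.956 and 10.94 with it in HCC1937+BRCA1. Of the 10 calls among transport factors in HCC1937, the count dropped to 5 when COH29 replicate 1 of that line was left out and to 6 when its control replicate 2 was.

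**Figure D1:**
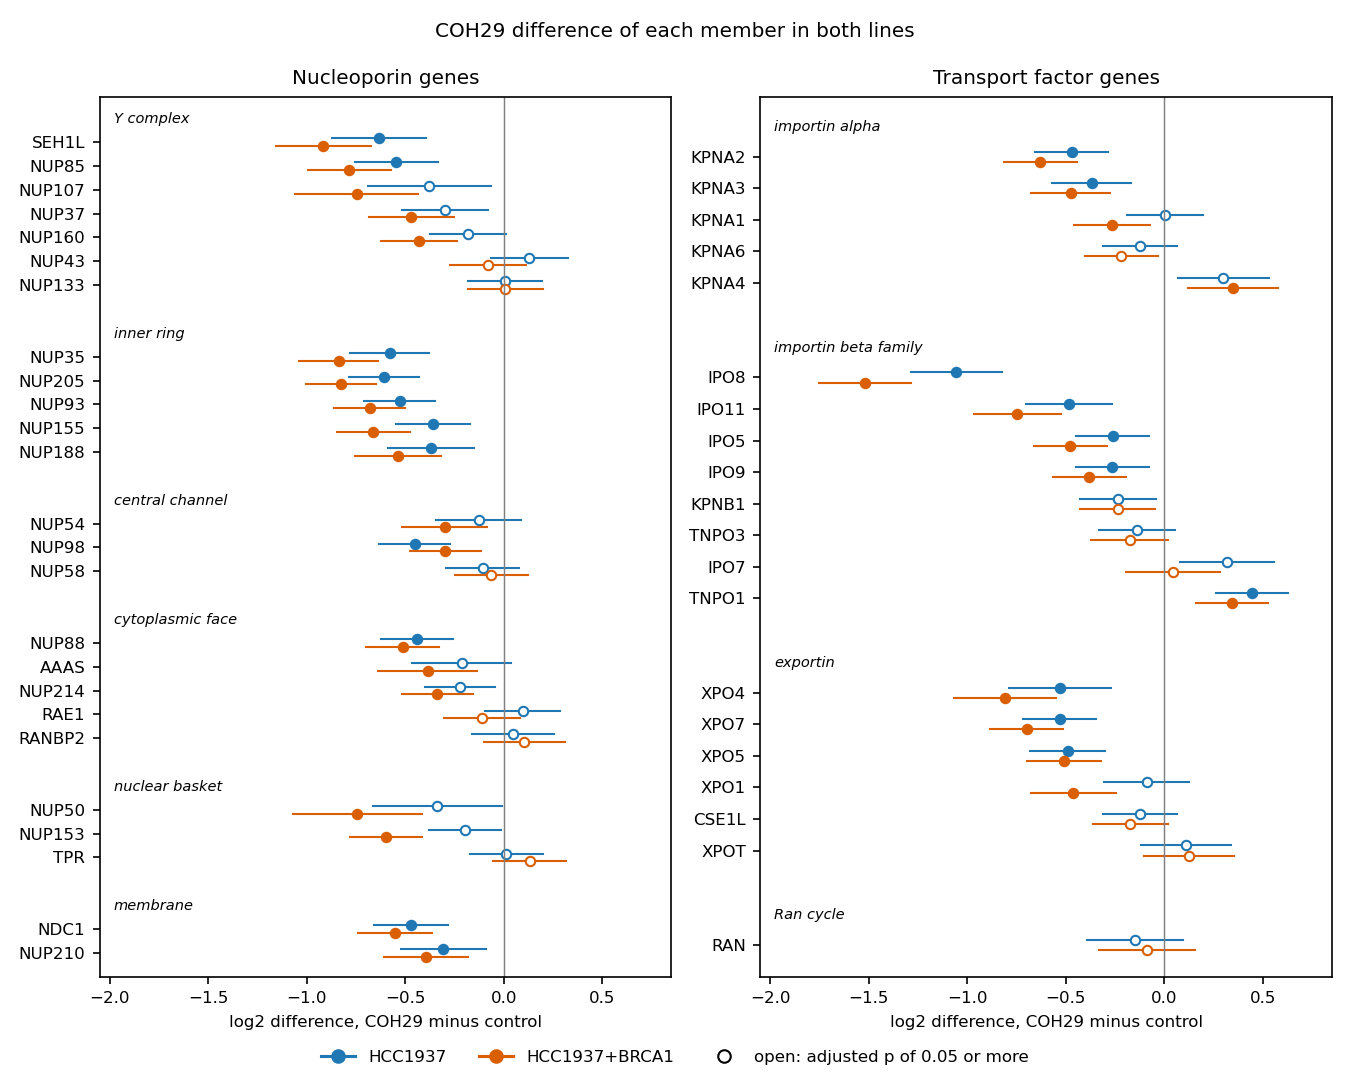
Log2 difference between COH29 and control arrays (x axis) of each of the 45 genes, grouped by role, in HCC1937 (blue) and HCC1937+BRCA1 (orange); points are limma estimates, lines their 95% intervals, filled points have an adjusted p under 0.05. The 5 inner ring genes are filled and left of 0 in both lines, IPO8 lies farthest left, and TNPO1 is filled right of 0 in both.

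Genes active around mitosis moved the same way. Of 17 markers of G2 and mitosis, 15 were lower and 0 higher in HCC1937 and 17 lower and 0 higher in HCC1937+BRCA1, with medians of -0.83 and -1.01. This list too was chosen with earlier results of these data known. Over all genes 12.5% and 20.1% were lower, and over those of like signal 19.1% and 32%. The mean of the 17 markers read 11.33 and 11.32 without and 10.36 and 10.42 with COH29 in HCC1937, and 11.27 and 11.13 without and 10.18 and 10.10 with it in HCC1937+BRCA1. Some markers of other cell types were also called with the drug, in both directions. PECAM1 read 9.23 and 9.37 without and 7.30 and 7.40 with COH29 in HCC1937, and 8.08 and 8.14 without and 6.51 and 6.75 with it in HCC1937+BRCA1. CDH5 fell by 1.28 in HCC1937 and by 0.50 in HCC1937+BRCA1. CD14 fell by 1.13 in HCC1937 and differed by -0.12 in HCC1937+BRCA1. The leukocyte markers CD3E (0.32 and 0.42), CD68 (0.22 and 0.25), LYZ (0.21 and 0.03) and PTPRC (0.03 and -0.01) were not called in HCC1937 or HCC1937+BRCA1. Of 5 fibroblast markers 0 were called in HCC1937. In HCC1937+BRCA1 DCN alone was called, at 0.25 (adjusted p = 0.0442), and it read at most 4.17 on any array. The other 3 endothelial markers, VWF, KDR and TEK, read at most 6.08 on any array. VWF differed by 0.25 in HCC1937 and 0.05 in HCC1937+BRCA1, KDR by 0.13 and 0.14, and TEK by -0.06 and 0.37. Of these only TEK in HCC1937+BRCA1 was called (adjusted p = 0.037). The mean of the 5 endothelial markers read 6.90 and 6.88 without and 6.34 and 6.28 with COH29 in HCC1937, and 6.32 and 6.44 without and 6.08 and 6.12 with it in HCC1937+BRCA1. The part of these shifts in the result for the pore and transport genes was not tested.

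Since many of these genes moved together, their promoters were searched in the RefSeq table of GRCh38.p14, which holds 250 bases before to 50 after each gene's start and had windows for 41 of the 45, 51 in all. TTTGAA, the core of the CHR element (cell cycle genes homology region) of genes expressed late in the cell cycle, was on either strand of 15 of these 51 windows (29.4%), against 15.2% of all 35116 windows. CCAAT, the NF-Y box, was in 43.1% of the windows against 34.6%, and TTCCCGC, an E2F site, in 17.6% against 6.55%. CACGTG was in 11.8% against 7.26%, and the palindromic NRF1 site in 3.92% against 1.24%. Windows of 1 gene can overlap, as those of NUP98 do, so the same match can count more than once. The shares over all windows take in genes of any signal, and no share per gene over all genes is given. Of the 19 genes with a window that fell in both lines, 7 held TTTGAA (IPO11, KPNA2, NDC1, NUP205, NUP35, NUP93 and NUP98), as did 13 of all 41. CSE1L, IPO7, NUP153, NUP37, NUP50 and RAN, which did not fall in both lines, were the others that held it. Of the same 19, 10 held CCAAT, 4 TTCCCGC, 2 CACGTG and 0 the NRF1 site, against 18, 8, 6 and 2 of the 41. A match is only a description. The 170 bases before the start are shown for NUP205, NUP35, KPNA2 and NDC1, which fell in both lines and hold TTTGAA, for IPO8, which fell most and holds neither TTTGAA nor CCAAT here, and for TNPO1, which rose (1 of its 2 windows). Each runs 5′ to 3′ on the gene's strand, and capitals mark TTTGAA or CCAAT on either strand.
NUP205 (chr7:135557747-135557916, plus strand): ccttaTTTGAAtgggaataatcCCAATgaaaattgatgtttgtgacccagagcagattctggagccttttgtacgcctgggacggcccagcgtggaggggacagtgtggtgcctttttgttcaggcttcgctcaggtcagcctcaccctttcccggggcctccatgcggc
NUP35 (chr2:183124273-183124442, plus strand): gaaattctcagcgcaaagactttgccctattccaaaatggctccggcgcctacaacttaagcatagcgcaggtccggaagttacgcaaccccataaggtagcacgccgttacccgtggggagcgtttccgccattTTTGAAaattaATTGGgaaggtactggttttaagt
KPNA2 (chr17:68035565-68035734, plus strand): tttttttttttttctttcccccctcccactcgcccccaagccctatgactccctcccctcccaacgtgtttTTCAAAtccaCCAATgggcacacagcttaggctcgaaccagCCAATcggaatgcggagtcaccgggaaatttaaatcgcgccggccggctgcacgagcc
NDC1 (chr1:53838297-53838466, minus strand): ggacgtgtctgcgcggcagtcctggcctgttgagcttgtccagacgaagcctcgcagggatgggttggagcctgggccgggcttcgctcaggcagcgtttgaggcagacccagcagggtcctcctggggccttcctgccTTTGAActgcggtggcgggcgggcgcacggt
IPO8 (chr12:30695870-30696039, minus strand): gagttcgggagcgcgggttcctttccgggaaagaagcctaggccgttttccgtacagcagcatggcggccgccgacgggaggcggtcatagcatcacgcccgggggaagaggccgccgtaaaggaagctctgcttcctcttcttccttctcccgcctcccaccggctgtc
TNPO1 (chr5:72816491-72816660, plus strand): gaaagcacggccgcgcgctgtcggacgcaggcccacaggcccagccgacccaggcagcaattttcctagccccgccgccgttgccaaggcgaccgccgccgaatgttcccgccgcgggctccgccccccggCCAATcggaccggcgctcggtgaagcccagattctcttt

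Every measured gene of the inner ring fell. The ring joins the scaffold to the membrane and the channel, and its 5 genes were lower in both lines, with medians of -0.53 in HCC1937 and -0.68 in HCC1937+BRCA1. Beside this and the counts by role that follow, 12.5% of all genes were lower in HCC1937 and 20.1% in HCC1937+BRCA1. Among the 7722 genes of like signal the shares were 19.1% and 32%. For NUP205, the HCC1937 arrays gave 9.84 and 9.84 without and 9.23 and 9.23 with COH29, and the HCC1937+BRCA1 arrays gave 10.65 and 10.57 without and 9.80 and 9.77 with it. NUP205, a large scaffold protein of the ring, fell by 0.61 ± 0.078 (adjusted p = 0.000763) in HCC1937 and by 0.83 ± 0.078 (adjusted p = 8.13e-05) in HCC1937+BRCA1, and treated HCC1937+BRCA1 came down to about the level of untreated HCC1937. NUP35 stood at 9.71 and 9.74 in untreated and 9.15 and 9.14 in treated HCC1937, and at 10.49 and 10.45 in untreated and 9.73 and 9.54 in treated HCC1937+BRCA1. NUP35, which binds the membrane, followed the same order of groups and fell by 0.58 ± 0.089 (adjusted p = 0.00179) and by 0.84 ± 0.089 (adjusted p = 0.000146). NUP93 read 11.55 and 11.62 in the HCC1937 control arrays and 11.03 and 11.07 with COH29, against 11.79 and 11.83 in the HCC1937+BRCA1 control arrays and 11.14 and 11.11 with COH29. The treated arrays of NUP93, which links the ring to the central channel, lay below all control arrays of both lines, and it fell by 0.53 ± 0.079 (adjusted p = 0.00162) and by 0.68 ± 0.079 (adjusted p = 0.000243). The scaffold genes NUP155 and NUP188 fell by 0.36 ± 0.082 (adjusted p = 0.0131) and 0.37 ± 0.096 (adjusted p = 0.0239) in HCC1937, and by 0.66 ± 0.082 (adjusted p = 0.000333) and 0.54 ± 0.096 (adjusted p = 0.0025) in HCC1937+BRCA1. In HCC1937 the call of NUP155 was lost without control replicate 1 or COH29 replicate 1 (adjusted p = 0.107 and 0.0539), and that of NUP188 without any 1 of the 4 HCC1937 arrays (0.0517 to 0.124).

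The Y complex, the coat that also sits at kinetochores in mitosis, split. Of its 7 genes, 2 were lower in HCC1937 and 5 in HCC1937+BRCA1, with medians of -0.30 and -0.47. The 2 are 28.6%, where 19.1% of the genes of like signal were lower in HCC1937. For SEH1L, the HCC1937 arrays gave 10.17 and 9.92 without and 9.35 and 9.47 with COH29, and the HCC1937+BRCA1 arrays gave 9.83 and 9.82 without and 8.84 and 8.97 with it. SEH1L, a subunit that is also part of a nutrient-sensing complex, had its treated arrays below all control arrays and fell by 0.63 ± 0.11 (adjusted p = 0.00291) in HCC1937 and by 0.92 ± 0.11 (adjusted p = 0.000235) in HCC1937+BRCA1. NUP85 stood at 10.42 and 10.45 in untreated and 9.81 and 9.96 in treated HCC1937, and at 10.27 and 10.43 in untreated and 9.55 and 9.58 in treated HCC1937+BRCA1. NUP85, its binding partner, likewise had treated arrays below every control array and fell by 0.55 ± 0.093 (adjusted p = 0.00317) and by 0.78 ± 0.093 (adjusted p = 0.000266). NUP107 read 9.99 and 10.03 in the HCC1937 control arrays and 9.60 and 9.66 with COH29, against 10.13 and 9.92 in the HCC1937+BRCA1 control arrays and 9.49 and 9.07 with COH29. The groups of NUP107 did not overlap within a line, but its replicates were wide apart in treated HCC1937+BRCA1, and it passed the test only in HCC1937+BRCA1, where it fell by 0.75 ± 0.14 (adjusted p = 0.00294) against -0.38 ± 0.14 (adjusted p = 0.0819) in HCC1937. Without either COH29 array of HCC1937+BRCA1 the HCC1937 value of NUP107 had an adjusted p of 0.0295. NUP37 and NUP160 fell by 0.47 ± 0.096 (adjusted p = 0.00509) and 0.43 ± 0.085 (adjusted p = 0.00439) in HCC1937+BRCA1 and differed by -0.30 ± 0.096 (adjusted p = 0.0544) and -0.18 ± 0.085 (adjusted p = 0.164) in HCC1937. Without COH29 replicate 2 of HCC1937, NUP37 was called there as well (-0.42, adjusted p = 0.0197). NUP133 differed by 0.01 ± 0.083 (adjusted p = 0.962) and 0.01 ± 0.083 (adjusted p = 0.945) and NUP43 by 0.13 ± 0.086 (adjusted p = 0.321) and -0.08 ± 0.086 (adjusted p = 0.495).

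In the channel, NUP98 was the gene lower in both lines. For NUP98, the HCC1937 arrays gave 10.46 and 10.45 without and 10.01 and 10.00 with COH29, and the HCC1937+BRCA1 arrays gave 10.17 and 10.08 without and 9.85 and 9.81 with it. NUP98, an FG protein that is also found on chromatin away from pores, fell by 0.45 ± 0.080 (adjusted p = 0.00376) and by 0.30 ± 0.080 (adjusted p = 0.0196), and its treated arrays lay below the control arrays of their own line. Its call in HCC1937+BRCA1 was lost without control replicate 1 or either treated array of HCC1937+BRCA1 (adjusted p from 0.055 to 0.123), and on scaling to a common median (0.05) or by cyclic loess (0.096). NUP54 stood at 9.79 and 9.66 in untreated and 9.64 and 9.56 in treated HCC1937, and at 9.68 and 9.54 in untreated and 9.37 and 9.25 in treated HCC1937+BRCA1. NUP54 fell by 0.30 ± 0.095 (adjusted p = 0.0392) in HCC1937+BRCA1, where treated and control arrays lay apart, and differed by -0.13 ± 0.095 (adjusted p = 0.387) in HCC1937. That call was lost without control replicate 1 or either treated array of HCC1937+BRCA1, or either HCC1937 control array (adjusted p from 0.0538 to 0.219), on scaling to a common median (0.0909) and by cyclic loess (0.179). NUP58 read 10.51 and 10.51 in the HCC1937 control arrays and 10.36 and 10.44 with COH29, against 9.68 and 9.58 in the HCC1937+BRCA1 control arrays and 9.58 and 9.56 with COH29. NUP58, which forms the channel's core complex with NUP54 and NUP62, was ordered by line and not by drug, with COH29 differences of -0.11 ± 0.082 (adjusted p = 0.394) and -0.06 ± 0.082 (adjusted p = 0.575).

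On the cytoplasmic face 1 of 5 genes was lower in HCC1937 and 3 in HCC1937+BRCA1. The count in HCC1937 is 20%, near the 19.1% of genes of like signal that were lower there. For NUP88, the HCC1937 arrays gave 11.28 and 11.29 without and 10.81 and 10.88 with COH29, and the HCC1937+BRCA1 arrays gave 11.23 and 11.26 without and 10.78 and 10.69 with it. NUP88, which holds NUP214 and the exportin platform, had all 4 treated arrays below all 4 control arrays and fell by 0.44 ± 0.082 (adjusted p = 0.00486) and by 0.51 ± 0.082 (adjusted p = 0.00132). NUP214 stood at 10.59 and 10.57 in untreated and 10.37 and 10.35 in treated HCC1937, and at 10.65 and 10.57 in untreated and 10.25 and 10.30 in treated HCC1937+BRCA1. NUP214, a docking site for XPO1, showed the same order of arrays with smaller steps, falling by 0.34 ± 0.079 (adjusted p = 0.01) in HCC1937+BRCA1 and differing by -0.22 ± 0.079 (adjusted p = 0.078) in HCC1937. AAAS read 10.21 and 10.17 in the HCC1937 control arrays and 9.86 and 10.09 with COH29, against 9.93 and 10.02 in the HCC1937+BRCA1 control arrays and 9.47 and 9.71 with COH29. AAAS, the WD-repeat protein aladin, fell by 0.39 ± 0.11 (adjusted p = 0.0252) in HCC1937+BRCA1 and differed by -0.21 ± 0.11 (adjusted p = 0.208) in HCC1937, with treated below control arrays in each line. The calls of NUP214 and AAAS in HCC1937+BRCA1 were lost without its control replicate 1 (adjusted p = 0.072 and 0.0628) or its COH29 replicate 1 (0.052 and 0.146), that of AAAS also without control replicate 2 (0.104) and with cyclic loess (0.074). RANBP2, the SUMO ligase of the cytoplasmic filaments, differed by 0.05 ± 0.092 (adjusted p = 0.75) and 0.10 ± 0.092 (adjusted p = 0.401). RAE1, an mRNA export factor, differed by 0.10 ± 0.085 (adjusted p = 0.463) and -0.11 ± 0.085 (adjusted p = 0.336).

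Of the 3 basket genes, 0 were called in HCC1937 and 2 were lower in HCC1937+BRCA1, NUP153 and NUP50, while TPR stood apart. For NUP153, the HCC1937 arrays gave 11.45 and 11.46 without and 11.26 and 11.26 with COH29, and the HCC1937+BRCA1 arrays gave 11.42 and 11.34 without and 10.83 and 10.74 with it. NUP153, which anchors the basket, fell by 0.60 ± 0.081 (adjusted p = 0.000574) in HCC1937+BRCA1, where the groups were clearly apart, and differed by -0.20 ± 0.081 (adjusted p = 0.12) in HCC1937. NUP50 stood at 8.86 and 8.61 in untreated and 8.31 and 8.49 in treated HCC1937, and at 8.82 and 8.61 in untreated and 7.79 and 8.16 in treated HCC1937+BRCA1. NUP50, a cofactor of importin alpha release, fell by 0.74 ± 0.14 (adjusted p = 0.00396) in HCC1937+BRCA1 and differed by -0.34 ± 0.14 (adjusted p = 0.135) in HCC1937, where its treated arrays were also the lower ones. TPR read 10.90 and 10.95 in the HCC1937 control arrays and 10.92 and 10.95 with COH29, against 10.79 and 10.72 in the HCC1937+BRCA1 control arrays and 10.93 and 10.84 with COH29. TPR, the coiled-coil protein of the basket filaments, stayed within a narrow range on all 8 arrays, with differences of 0.01 ± 0.082 (adjusted p = 0.924) and 0.13 ± 0.082 (adjusted p = 0.239), the second of which was called with cyclic loess (0.23, adjusted p = 0.0431).

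Both membrane genes measured were lower in both lines. For NDC1, the HCC1937 arrays gave 11.23 and 11.18 without and 10.74 and 10.73 with COH29, and the HCC1937+BRCA1 arrays gave 11.43 and 11.33 without and 10.87 and 10.79 with it. NDC1, which recruits other nucleoporins to the membrane, fell by 0.47 ± 0.083 (adjusted p = 0.00363) and by 0.55 ± 0.083 (adjusted p = 0.000955) with every treated array below every control array. NUP210 stood at 10.85 and 11.00 in untreated and 10.64 and 10.60 in treated HCC1937, and at 10.65 and 10.50 in untreated and 10.23 and 10.13 in treated HCC1937+BRCA1. NUP210, a glycoprotein of the lumen, fell by 0.31 ± 0.095 (adjusted p = 0.0464) and by 0.40 ± 0.095 (adjusted p = 0.0111), with treated below control arrays within each line. The call of NUP210 in HCC1937 was lost without any 1 of the 8 arrays (adjusted p from 0.0523 to 0.268) and under both other scalings (0.0769 and 0.0657), and that in HCC1937+BRCA1 without its control replicate 1 (0.0851) or its COH29 replicate 2 (0.0698).

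Importin alphas, the adaptors that read classical localisation signals, moved in both directions. Of 5, 2 were lower and 0 higher in HCC1937, and 3 lower and 1 higher in HCC1937+BRCA1. KPNA2 read 13.09 and 13.05 in the HCC1937 control arrays and 12.60 and 12.60 with COH29, against 13.00 and 13.03 in the HCC1937+BRCA1 control arrays and 12.33 and 12.44 with COH29. KPNA2, the adaptor known for its abundance in proliferating cells, fell by 0.47 ± 0.082 (adjusted p = 0.0034) and by 0.63 ± 0.082 (adjusted p = 0.000433) with no overlap between treated and control arrays, and its other probe set gave -0.46 and -0.62. For KPNA3, the HCC1937 arrays gave 10.30 and 10.27 without and 9.93 and 9.90 with COH29, and the HCC1937+BRCA1 arrays gave 10.22 and 10.12 without and 9.77 and 9.62 with it. KPNA3 fell by 0.37 ± 0.088 (adjusted p = 0.0162) and by 0.48 ± 0.088 (adjusted p = 0.00301), again with the treated arrays lowest, and its call in HCC1937 was lost without any 1 of the 4 HCC1937 arrays (adjusted p from 0.0571 to 0.0912). KPNA4 stood at 10.75 and 10.80 in untreated and 11.00 and 11.14 in treated HCC1937, and at 11.10 and 10.90 in untreated and 11.41 and 11.28 in treated HCC1937+BRCA1. KPNA4, the closest relative of KPNA3, had higher treated arrays in each line and rose by 0.35 ± 0.10 (adjusted p = 0.0277) in HCC1937+BRCA1, against 0.30 ± 0.10 (adjusted p = 0.0665) in HCC1937. Its call in HCC1937+BRCA1 was lost without its control replicate 2 (0.25, adjusted p = 0.151) or its COH29 replicate 1 (0.28, adjusted p = 0.133), while in HCC1937 it was gained with cyclic loess (adjusted p = 0.0382). KPNA1 fell by 0.27 ± 0.085 (adjusted p = 0.0385) in HCC1937+BRCA1, a call lost without any 1 of the 4 arrays of that line or either HCC1937 control array (adjusted p from 0.06 to 0.164) and under both other scalings (0.0733 and 0.147), and differed by 0.00 ± 0.085 (adjusted p = 0.976) in HCC1937. KPNA6 differed by -0.13 ± 0.082 (adjusted p = 0.318) and -0.22 ± 0.082 (adjusted p = 0.0698).

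The importin beta family held the largest fall and the 1 rise seen in both lines. Of its 8 genes, 4 were lower and 1 higher in each line. IPO8 read 10.13 and 10.02 in the HCC1937 control arrays and 8.97 and 9.07 with COH29, against 9.76 and 9.64 in the HCC1937+BRCA1 control arrays and 8.29 and 8.07 with COH29. IPO8, a carrier of SMAD proteins and of Argonaute, fell by 1.06 ± 0.10 (adjusted p = 0.000194) in HCC1937, 2.08-fold, and by 1.52 ± 0.10 (adjusted p = 1.48e-05) in HCC1937+BRCA1, 2.87-fold, with the treated arrays far below the controls. For IPO11, the HCC1937 arrays gave 10.50 and 10.52 without and 9.93 and 10.12 with COH29, and the HCC1937+BRCA1 arrays gave 9.68 and 9.61 without and 8.98 and 8.82 with it. IPO11, a carrier of ubiquitin-conjugating enzymes, was lower on treated arrays in each line and fell by 0.48 ± 0.097 (adjusted p = 0.00713) and by 0.75 ± 0.097 (adjusted p = 0.000443), although without COH29 replicate 1 of HCC1937 its adjusted p there was 0.0504. IPO5 stood at 12.12 and 12.06 in untreated and 11.84 and 11.81 in treated HCC1937, and at 11.80 and 11.75 in untreated and 11.35 and 11.25 in treated HCC1937+BRCA1. IPO5, a carrier of histones and ribosomal proteins, fell by 0.26 ± 0.082 (adjusted p = 0.0474) and by 0.48 ± 0.082 (adjusted p = 0.00195), with treated below control arrays in each line. TNPO1 read 11.41 and 11.45 in the HCC1937 control arrays and 11.88 and 11.87 with COH29, against 10.99 and 10.97 in the HCC1937+BRCA1 control arrays and 11.38 and 11.26 with COH29. TNPO1, the importer of hnRNP proteins such as HNRNPA1, was highest on treated arrays of its line and rose by 0.44 ± 0.081 (adjusted p = 0.00469) and by 0.34 ± 0.081 (adjusted p = 0.0107), although the second call was lost without COH29 replicate 1 of HCC1937+BRCA1 (0.28, adjusted p = 0.0666).

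For KPNB1, the HCC1937 arrays gave 11.66 and 11.68 without and 11.47 and 11.41 with COH29, and the HCC1937+BRCA1 arrays gave 11.80 and 11.69 without and 11.55 and 11.46 with it. KPNB1, importin beta itself and the partner of the importin alphas, was lower on all treated arrays but missed the threshold, at -0.23 ± 0.085 (adjusted p = 0.0795) and -0.24 ± 0.085 (adjusted p = 0.0586). It was called in both lines with genes of low signal left out (adjusted p = 0.0422 and 0.0308). TNPO3 stood at 10.21 and 10.24 in untreated and 10.04 and 10.13 in treated HCC1937, and at 10.91 and 10.83 in untreated and 10.63 and 10.75 in treated HCC1937+BRCA1. TNPO3, which imports serine/arginine-rich splicing factors, differed more by line than by drug and had COH29 differences of -0.14 ± 0.086 (adjusted p = 0.289) and -0.18 ± 0.086 (adjusted p = 0.144). IPO9, another carrier of histones, fell by 0.26 ± 0.083 (adjusted p = 0.0488) and by 0.38 ± 0.083 (adjusted p = 0.00676). IPO7, a close relative of IPO8, differed by 0.32 ± 0.10 (adjusted p = 0.0588) in HCC1937 and by 0.04 ± 0.10 (adjusted p = 0.772) in HCC1937+BRCA1, and its HCC1937 value was called without COH29 replicate 2 of that line (0.42, adjusted p = 0.0408) and under both other scalings (0.0442 and 0.0463). The calls of IPO5 and IPO9 in HCC1937 were lost without any 1 of the 8 arrays, with adjusted p from 0.0555 to 0.208 and from 0.0553 to 0.192, and on scaling to a common median (0.0762 and 0.058).

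Among 6 exportins, 3 were lower in HCC1937 and 4 in HCC1937+BRCA1, and 0 were higher. XPO7 read 11.22 and 11.27 in the HCC1937 control arrays and 10.68 and 10.75 with COH29, against 11.34 and 11.26 in the HCC1937+BRCA1 control arrays and 10.56 and 10.64 with COH29. XPO7 fell by 0.53 ± 0.083 (adjusted p = 0.00189) and by 0.70 ± 0.083 (adjusted p = 0.000256), and its 4 treated arrays lay below its 4 control arrays. For XPO4, the HCC1937 arrays gave 9.57 and 9.64 without and 8.98 and 9.16 with COH29, and the HCC1937+BRCA1 arrays gave 9.04 and 8.82 without and 8.24 and 8.01 with it. XPO4, an exporter of the translation factor EIF5A, fell by 0.53 ± 0.11 (adjusted p = 0.0101) and by 0.81 ± 0.11 (adjusted p = 0.00071), with treated below control arrays in each line, and its HCC1937 call was lost without HCC1937 control replicate 2 (adjusted p = 0.0718) or COH29 replicate 1 (0.0709). XPO5 stood at 10.72 and 10.80 in untreated and 10.22 and 10.31 in treated HCC1937, and at 10.45 and 10.37 in untreated and 9.87 and 9.93 in treated HCC1937+BRCA1. XPO5, the exporter of precursor microRNAs, had lower treated arrays in each line and fell by nearly the same amount in both, 0.49 ± 0.084 (adjusted p = 0.0032) and 0.51 ± 0.084 (adjusted p = 0.00158).

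XPO1 read 11.42 and 11.44 in the HCC1937 control arrays and 11.38 and 11.30 with COH29, against 11.71 and 11.58 in the HCC1937+BRCA1 control arrays and 11.27 and 11.09 with COH29. XPO1, the main exporter of proteins with a leucine-rich signal, fell by 0.46 ± 0.095 (adjusted p = 0.00516) in HCC1937+BRCA1 and differed by -0.09 ± 0.095 (adjusted p = 0.542) in HCC1937, where treated and control arrays were close. For CSE1L, the HCC1937 arrays gave 12.76 and 12.81 without and 12.66 and 12.66 with COH29, and the HCC1937+BRCA1 arrays gave 12.74 and 12.64 without and 12.56 and 12.47 with it. CSE1L, which returns importin alpha to the cytoplasm, was slightly lower on treated arrays and was not called, at -0.12 ± 0.084 (adjusted p = 0.328) and -0.17 ± 0.084 (adjusted p = 0.142). XPOT, the exporter of transfer RNA, differed by 0.11 ± 0.10 (adjusted p = 0.489) and 0.12 ± 0.10 (adjusted p = 0.366). RAN stood at 11.85 and 11.92 in untreated and 11.71 and 11.76 in treated HCC1937, and at 12.19 and 11.98 in untreated and 12.11 and 11.88 in treated HCC1937+BRCA1. RAN, the GTPase that gives the cycle its direction, overlapped between treated and control arrays in HCC1937+BRCA1 and differed by -0.15 ± 0.11 (adjusted p = 0.368) and -0.09 ± 0.11 (adjusted p = 0.552), while its other probe set gave -0.11 and -0.19. That probe set did not overlap in HCC1937+BRCA1, with 10.46 and 10.48 on treated against 10.72 and 10.60 on control arrays. RAN has near-identical pseudogene copies, and which of its probe sets they reach is not known here, so its values are uncertain.

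**Figure D2:**
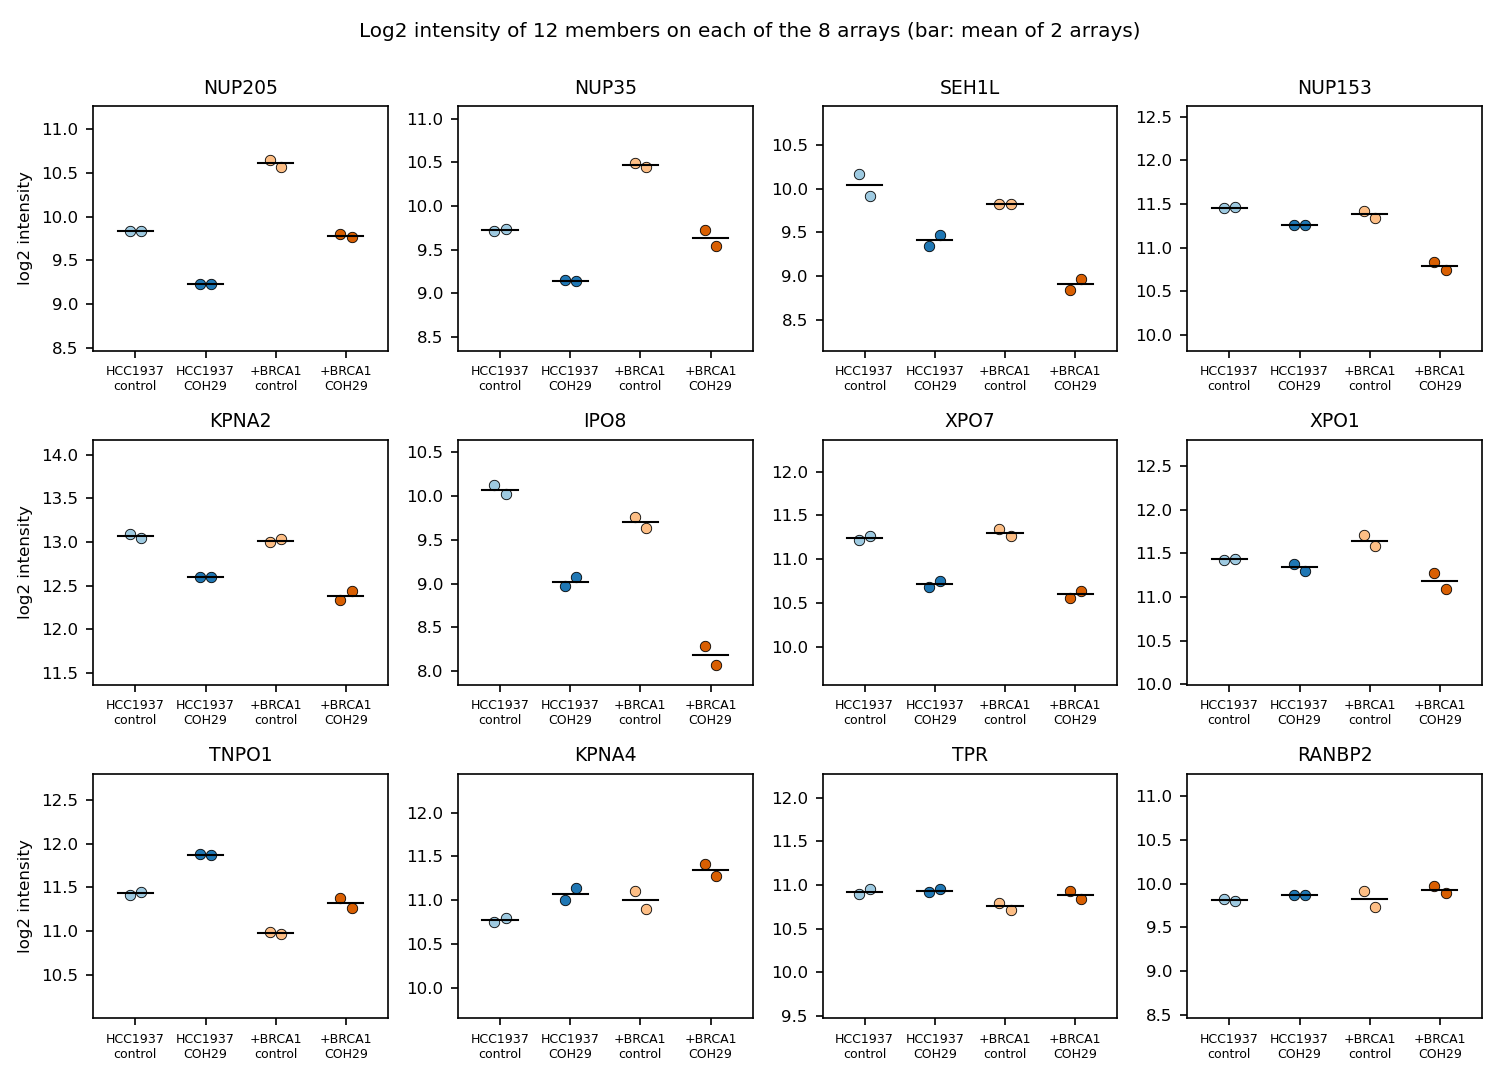
Log2 intensity (y axis, 2.8 units in each panel) on each of the 8 arrays (points) by group (x axis) for 12 of the genes; bars are means of 2 arrays. NUP205, NUP35, SEH1L, KPNA2, IPO8 and XPO7 lie lower with COH29 in both lines, TNPO1 and KPNA4 lie higher, and TPR and RANBP2 stay nearly level.

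Whether COH29 acted more strongly in 1 line was tested as the difference of its effects, HCC1937 minus HCC1937+BRCA1. Of the 45 genes, 0 were called, with 4 (8.89%) at an unadjusted p under 0.05, where 13.2% of all genes had one. Of all genes 0.956% were called (0.413% higher, 0.543% lower) and 1.1% of the 7722 of like signal (0.389% higher, 0.712% lower). The 4 were NUP153 (0.40, 95% interval 0.14 to 0.66, adjusted p = 0.173), IPO8 (0.46, 0.13 to 0.79, adjusted p = 0.213), XPO1 (0.37, 0.07 to 0.68, adjusted p = 0.282) and NUP155 (0.30, 0.04 to 0.57, adjusted p = 0.311), each with the lower value in HCC1937+BRCA1. The estimate was above 0 for 37 of the 45 and for 10142 of all 18417 genes. Its median was 0.17 over the 45, against 0.02 over all genes and 0.07 over the 7722 genes of like signal. The greater number of calls in HCC1937+BRCA1 is therefore not a shown difference between the lines for any 1 gene. With a variance trend and robust fit NUP153 alone was called (0.40, adjusted p = 0.0191), and on scaling to a common median the medians were 0.14 for nucleoporins and 0.08 for transport factors.

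Between the lines without drug, the share of these genes called lay between that of all genes and that of genes of like signal. In control arrays, HCC1937+BRCA1 minus HCC1937, 5 of the 45 were higher and 12 lower, with a median of -0.04, where 31.2% of all genes were called, 16.4% higher and 14.8% lower. That is 37.8% of the 45, and 44.6% of the genes of like signal were called (23.5% higher, 21.1% lower). Nucleoporins were split, 4 higher and 5 lower, and transport factors were 1 higher and 7 lower. The 9 and 8 calls became 5 and 4 without control replicate 2 of HCC1937+BRCA1, and 6 and 4 without control replicate 2 of HCC1937. Without control replicate 1 of HCC1937 they became 6 and 5. In COH29 arrays 4 were higher and 16 lower, where 31.6% of all genes were called (14.2% higher, 17.4% lower) and 47.1% of those of like signal (19.9% higher, 27.2% lower). The COH29 contrast is the control one less the difference of effects and so no separate test. The BRCA1 signal did not differ past the threshold between the lines in either set of arrays, at -0.08 in control arrays and, from 10.40 and 10.46 in HCC1937 to 10.25 and 10.07 in HCC1937+BRCA1, -0.27 (adjusted p = 0.0722) in COH29 arrays, with the lower values in HCC1937+BRCA1. With COH29 it fell by 0.30 (adjusted p = 0.0441) in HCC1937+BRCA1. CD14 read 10.47 and 10.74 in the HCC1937 and 6.81 and 6.87 in the HCC1937+BRCA1 control arrays, while the leukocyte markers PTPRC, CD3E and LYZ read at most 5.64 on any array. PECAM1 and CDH5 were lower in the HCC1937+BRCA1 control arrays too, at -1.19 (adjusted p = 3.52e-05) and -1.34 (adjusted p = 1.25e-05). VWF, KDR and TEK differed by 0.15, 0.01 and -0.18 and were not called. The mean of the 5 leukocyte markers was 6.97 and 7.02 in HCC1937 and 6.07 and 6.23 in HCC1937+BRCA1. CD14 (-3.77) was the 1 leukocyte marker called, and CD68 differed by 0.03 (adjusted p = 0.841). Of 5 basal mammary markers KRT5 was lower (-1.70, adjusted p = 2.57e-06) and EGFR higher (0.51, adjusted p = 0.00113). Of 6 epithelial markers only KRT19 was called (-0.82, adjusted p = 7.91e-05). The part of these markers in the line differences was not tested.

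By size, 6 genes led. NUP58 was lower in HCC1937+BRCA1 by 0.88 ± 0.082 (adjusted p = 5.64e-05) and remained so with COH29 (-0.83 ± 0.082, adjusted p = 7.93e-05). IPO11 was lower as well, at -0.86 ± 0.097 (adjusted p = 0.000172) without and -1.12 ± 0.097 (adjusted p = 3.7e-05) with COH29, and its 4 HCC1937+BRCA1 arrays all lay below its 4 HCC1937 arrays. XPO4 differed by -0.67 ± 0.11 (adjusted p = 0.00191) and by -0.95 ± 0.11 (adjusted p = 0.000263) with COH29. In the other direction, NUP205 was higher in HCC1937+BRCA1 by 0.77 ± 0.078 (adjusted p = 9.16e-05) and NUP35 by 0.75 ± 0.089 (adjusted p = 0.000229), and both remained higher with COH29, at 0.55 ± 0.078 (adjusted p = 0.000644) and 0.49 ± 0.089 (adjusted p = 0.00258). TNPO3 was higher by 0.65 ± 0.086 (adjusted p = 0.00046) without and 0.61 ± 0.086 (adjusted p = 0.000651) with the drug. For NUP205 and NUP35, the difference between the lines was of about the size of the COH29 fall in HCC1937+BRCA1, as their array values given with the inner ring show.

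Of the other genes called, NUP43 was higher (0.47 ± 0.086, adjusted p = 0.00263), and TNPO1 (-0.45 ± 0.081, adjusted p = 0.00263) and NUP133 (-0.39 ± 0.083, adjusted p = 0.00605) were lower. IPO8 (-0.37 ± 0.10, adjusted p = 0.0221), IPO7 (-0.36 ± 0.10, adjusted p = 0.028), XPO5 (-0.35 ± 0.084, adjusted p = 0.012) and IPO5 (-0.31 ± 0.082, adjusted p = 0.0175) were lower too. So were NUP210 (-0.35 ± 0.095, adjusted p = 0.0206), NUP98 (-0.33 ± 0.080, adjusted p = 0.0117) and NUP155 (-0.31 ± 0.082, adjusted p = 0.0177), while NUP160 was higher (0.25 ± 0.085, adjusted p = 0.0497). These last 8 calls depended on single arrays. That of NUP160 was lost without any 1 of the 8 (adjusted p from 0.0531 to 0.276) and that of IPO5 without any 1 of the 4 control arrays (0.0559 to 0.111). Those of NUP210 (0.13 and 0.153) and XPO5 (0.0742 and 0.0908) were lost without control replicate 2 of HCC1937+BRCA1 or of HCC1937. Those of NUP98 (0.06 to 0.0793), IPO7 (0.0614 to 0.169) and IPO8 (0.0555 to 0.138) were lost without either of these or HCC1937 control replicate 1, and that of NUP155 without either HCC1937+BRCA1 control array or HCC1937 control replicate 1 (0.0728 to 0.139).

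**Figure D3:**
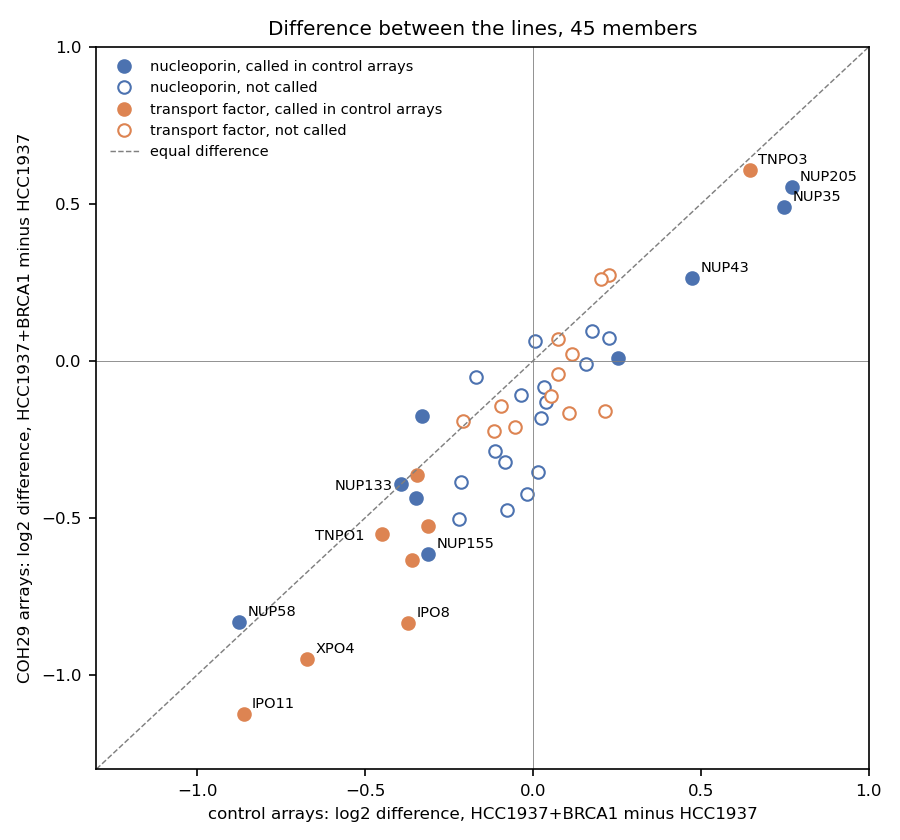
Log2 difference between HCC1937+BRCA1 and HCC1937 in COH29 arrays (y axis) against that in control arrays (x axis) for the 45 genes; filled points were called in control arrays, and the dashed line marks equal differences. NUP58, IPO11 and XPO4 lie low on both axes and NUP205, NUP35 and TNPO3 high on both, and 33 of the 45 lie below 0 in COH29 arrays against 24 in control arrays. Of all 18417 genes, 9311 lie below 0 in COH29 arrays and 9500 in control arrays.

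Genes next to these 6 on the chromosome were read off the RefSeq gene order, 20 nearest measured genes each, with no coordinates since the sources used here name no build for the array annotation. Around XPO4 on chromosome 13, 13 of 20 neighbours were called lower and 0 higher, with a median of -0.56, the nearest being EEF1AKMT1 (-0.78) and LATS2 (-0.46). Around NUP58, on the same chromosome, 11 were called lower and 0 higher, with a median of -0.42, MTMR6 (-0.83) and ATP8A2 (-0.01) being nearest. IPO11 on chromosome 5 had 12 neighbours called lower and 1 higher, with a median of -0.50, among them DIMT1 (-1.12) next to it. NUP35 on chromosome 2 had 10 called higher and 1 lower, with a median of 0.31 and DUSP19, also higher, beside it. NUP205 and TNPO3, both on chromosome 7, had 7 and 4 called higher, 0 and 3 called lower, and medians of 0.15 and 0.11. Over 17911 genes the same median ran from -0.30 at the 5th to 0.30 at the 95th percentile, so XPO4, NUP58, IPO11 and NUP35 had neighbours outside that range and NUP205 and TNPO3 had not. XPO4 and NUP58 lie on the same chromosome, so their neighbours need not be separate regions, which was not tested. The part of chromosomal position in these line differences was not tested.

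**Figure D4:**
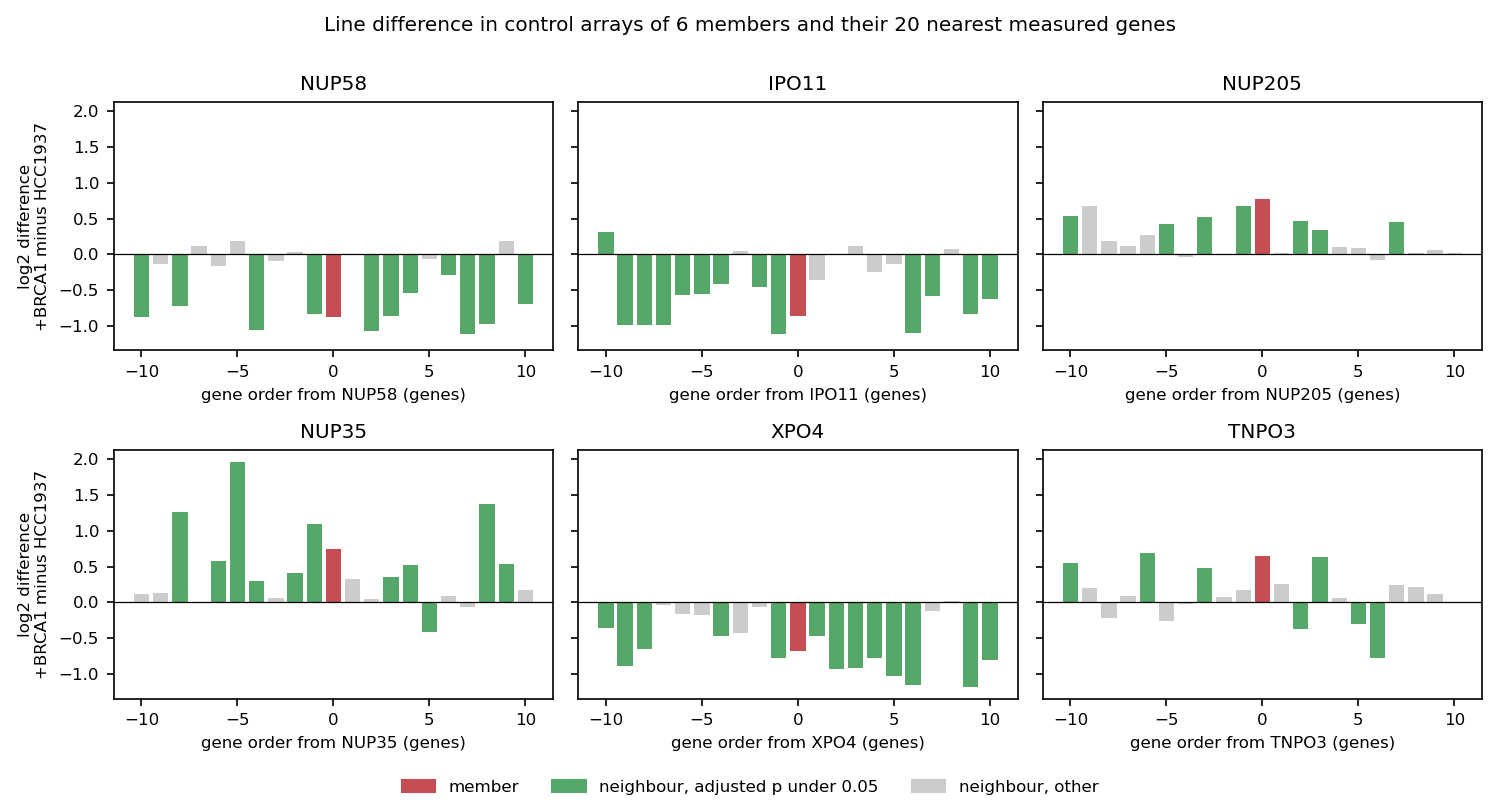
Log2 difference between HCC1937+BRCA1 and HCC1937 control arrays (y axis) for 6 genes (red) and the 10 measured genes on each side (x axis, gene order); green bars are neighbours with an adjusted p under 0.05. Most green bars around NUP58, IPO11 and XPO4 point down and most around NUP35 point up, while TNPO3 has both.

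A list of 45 further genes of nuclear transport, 39 of them measured, covers more of the pathway. AHCTF1, POM121C, NXF1, DDX39B, THOC3 and SENP2 were listed but not measured. Of the 39, 12 were lower and 0 higher in HCC1937, and 20 lower and 0 higher in HCC1937+BRCA1, with medians of -0.15 and -0.24. Over all genes 12.5% and 20.1% were lower, and over those of like signal to the 45 pore and transport genes 19.1% and 32%. Those of mRNA export were 4 of 15 lower in HCC1937 and 9 of 15 in HCC1937+BRCA1, and the regulators and carriers of RAN 1 of 6 and 2 of 6. For mRNA export in HCC1937 this is 26.7%, a share that rests on 4 genes. For the RAN group it is 16.7% and 33.3%, near the shares of like signal in both lines. LTV1 read 10.18 and 10.27 in the HCC1937 control arrays and 9.38 and 9.45 with COH29, against 10.03 and 9.82 in the HCC1937+BRCA1 control arrays and 8.57 and 8.56 with COH29. LTV1, which serves export and maturation of the small ribosomal subunit, fell by 0.81 ± 0.094 (adjusted p = 0.000454) and by 1.36 ± 0.094 (adjusted p = 1.65e-05), with treated far below control arrays in both lines. For GLE1, the HCC1937 arrays gave 9.81 and 9.69 without and 9.04 and 9.06 with COH29, and the HCC1937+BRCA1 arrays gave 9.45 and 9.48 without and 8.55 and 8.55 with it. GLE1, the cytoplasmic activator of the mRNA export helicase, was lower on treated arrays in each line and fell by 0.70 ± 0.082 (adjusted p = 0.00048) and by 0.92 ± 0.082 (adjusted p = 6.03e-05).

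DDX39A, an RNA helicase of mRNA export, fell by 0.68 ± 0.085 (adjusted p = 0.000681) and by 0.69 ± 0.085 (adjusted p = 0.000319). TNPO2, the near relative of TNPO1, went the other way from it and fell by 0.64 ± 0.082 (adjusted p = 0.000756) and by 0.52 ± 0.082 (adjusted p = 0.00124). SENP1, a SUMO protease held at the basket, fell by 0.40 ± 0.096 (adjusted p = 0.017) and by 1.03 ± 0.096 (adjusted p = 7.39e-05), with a difference of effects of 0.64 ± 0.14 (adjusted p = 0.0763). NUP42, a partner of GLE1, fell by 0.34 ± 0.089 (adjusted p = 0.0243) and by 0.76 ± 0.089 (adjusted p = 0.000244). In the difference of effects 0 of the 39 were called, with 6 (15.4%) at an unadjusted p under 0.05, close to the 13.2% of all genes.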

How the data were processed

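RNA of the 4 groups was measured on 8 Affymetrix arrays. The authors deposited log2 intensities for 33297 probe sets. Per the submitters' processing notes, RMA and Partek were used, with no version given, and sorted values of any 2 arrays differed by at most 0.297. RMA equalises the distributions of the arrays, so changes are relative to all genes and a general rise or fall of RNA is not seen. Platform annotation paired 19460 probe sets with 1 gene, 1754 with several and 12083 with none, and 19429 matched RefSeq's gene table (GRCh38.p14). The probe set with the highest mean was kept per gene (18417 genes).

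Group means of all 8 arrays were fitted with limma 3.58.1 (R 4.3.3), with Benjamini-Hochberg adjustment over all genes and calls at 0.05. On data simulated for COH29 in HCC1937 over the 18417 genes, 67, 67 and 66 genes were given changes of 0.5, 1 and 2 (log2). The fit recovered 67.2% of changes of 0.5 and 100% of changes of 1 or 2, and 14 of 192 calls were false. The measured arrays gave 4179 calls in that comparison, so these rates need not hold for them. Members and lists were chosen with earlier results of these data known. Every member is named, and array values are given for up to 3 genes per role with the smallest adjusted p under COH29, for the 6 largest line differences past 0.5 and for the core of the transport cycle. TNPO1 was added after its values had been seen. Of the further genes, the 4 with the smallest adjusted p per drug comparison are named. Alternatives were a filter on low values (30th percentile), 2 other scalings, a trended and robust variance, a replicate block, the mean of all probe sets, only the groups compared and each array left out.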

Additional observations from a re-analysis of the deposited data

How the results depend on the processing

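Counts of nucleoporins and transport factors called for COH29 and between the lines moved by at most 1.5 times under each alternative that kept all 8 arrays, and no named value changed sign where it was called. Calls were kept under every alternative and every left-out array for 13 of 21 genes in HCC1937, 24 of 32 in HCC1937+BRCA1 and 9 of 17 between the lines. The difference of COH29 effects gave 176 genes in all, 351 with low signals left out, 566 with a trended and robust variance (where nucleoporins had 1) and 106 with the replicate block; the cause was not tested. Leaving out 1 array gave 2336 to 4012 genes in HCC1937 (nucleoporins 8 to 11, transport factors 5 to 8, the fewest without COH29 replicate 1), and 4171 to 6400 in HCC1937+BRCA1 (14 to 19 and 10 to 13). It gave 41 to 67 genes in the difference of effects, fewest without COH29 replicate 2 of HCC1937+BRCA1 or control replicate 2 of HCC1937 (members 0 to 0), and 3988 to 5751 between the lines (5 to 8 and 4 to 8, the fewest without control replicate 2 of HCC1937+BRCA1, and for transport factors also of HCC1937).

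The labels number the arrays without saying that a number is shared, and deviations of same-numbered arrays correlated between -0.204 and 0.26 over genes, so the numbers were not taken to pair the samples. With the replicate block, 10 nucleoporins and 9 transport factors were called in HCC1937, 19 and 12 in HCC1937+BRCA1, and 8 and 8 between the lines. With the numbers crossed between the lines, an alternative chosen after seeing the data, the block gave 4777, 7021, 199 and 6182 genes. The median SE of a difference was 0.103, with 2 arrays a group.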

Other observations

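NUP62CL, a gene related to NUP62 that was singled out after its values had been seen, read 8.95 and 9.02 in HCC1937 control arrays and 6.37 and 6.11 in HCC1937+BRCA1 control arrays. Its line difference was -2.75 ± 0.13 (adjusted p = 9.09e-07) without COH29 and -3.29 ± 0.13 (adjusted p = 3.99e-07) with it, the largest in either direction among the 39 further transport genes. Its COH29 difference was 0.06 ± 0.13 (adjusted p = 0.784) in HCC1937 and -0.48 ± 0.13 (adjusted p = 0.0217) in HCC1937+BRCA1.

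In 3 pairs of close relatives the COH29 differences had opposite signs in HCC1937: KPNA3 (-0.37) and KPNA4 (0.30), IPO8 (-1.06) and IPO7 (0.32), and TNPO2 (-0.64) and TNPO1 (0.44). In HCC1937+BRCA1 they stood at -0.48 and 0.35, -1.52 and 0.04, and -0.52 and 0.34. The pairs were picked after the values had been seen, and KPNA4 in HCC1937 and IPO7 in both lines did not pass the test.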
